A study of Mus musculus with 141 samples.

Results

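The 10 genes described here are 8 immediate early genes (*Fos*, *Jun*, *Junb*, *Egr1*, *Atf3*, *Ier2*, *Dusp1* and *Nfkbia*) and the 2 inducible Hsp70 genes *Hspa1a* and *Hspa1b*, chosen by name from the 17136 genes counted. They were followed in all 141 cells, which were placed in classes by genes outside the set. Cells with at least 5000 reads per 1000000 reads (CPM) of *Ager* are called type 1 (64 cells), cells with at least 8000 CPM of *Sftpc* type 2 (27 cells), and the remaining 50 cells the rest, while 0 cells passed both limits. CPM was taken over all reads of the cell or, for a class, of the summed cells. All cells came from the lungs of 1 male, 4-month-old *ACID;R26tdTomato* mouse of strain 129SV, so they are 1 sample in 1 condition, with no undissociated lung beside it. The strain is spelled as in the sample labels, and the methods of the study name the background 129S6/SvEvTac.

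In this mouse, Cre is made from the *Aqp5* locus together with DsRed, and it removes a stop cassette in front of tdTomato at the *Rosa26* locus. A cell that has once used the *Aqp5* promoter therefore keeps the label, whatever it expresses later. Lungs were digested with pronase and collagenase/dispase, tdTomato+ cells were sorted by flow cytometry as E-cadherin+, CD45- and CD31-, and single cells were captured at the numbered columns and rows of a Fluidigm C1 chip. The submitters labelled every cell alveolar type 1, although 77 of the 141 did not reach the *Ager* limit.

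Immediate early genes are transcribed within minutes of a signal from transcription factors already present in the cell, without new protein synthesis. FOS, JUN and JUNB pair to form the AP-1 transcription factor, ATF3 is a related stress-induced factor, EGR1 is a zinc finger factor, and IER2 is a small nuclear protein. DUSP1, a phosphatase that switches off MAP kinases, and NFKBIA, the inhibitor that holds NF-kB in the cytoplasm, feed back on the pathways that induce them. HSPA1A and HSPA1B are Hsp70 chaperones induced by the heat shock factor HSF1 when proteins unfold. Enzymatic dissociation of tissue is known to induce members of both groups while cells are still alive in suspension, so these transcripts in sorted cells are often read as a trace of cell preparation.

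The promoters of 5 of the genes are shown: *Fos*, whose level was highest in the rest, *Jun*, whose level was highest in type 2, *Dusp1*, which exceeded 100 CPM in most type 1 cells, and the Hsp70 pair, whose promoters are nearly the same. RefSeq promoter sequences on GRCm38.p6, from 250 bases before to 50 bases after the gene start, were matched for 8 of the 10 genes. Each is written 5′ to 3′ on the strand of the gene, at chr12:85473640-85473939 (+) for *Fos*, chr4:95052173-95052472 (-) for *Jun*, chr17:26508423-26508722 (-) for *Dusp1*, chr17:34972107-34972406 (-) for *Hspa1a* and chr17:34959189-34959488 (-) for *Hspa1b*. Capitals mark matches, on either strand, to a heat shock element (GAANNTTC or TTCNNGAA), a cyclic AMP response element (TGACGTCA), an AP-1 site (TGACTCA), a CArG box, an NF-kB site or a TATA box (TATAAA).
Fos: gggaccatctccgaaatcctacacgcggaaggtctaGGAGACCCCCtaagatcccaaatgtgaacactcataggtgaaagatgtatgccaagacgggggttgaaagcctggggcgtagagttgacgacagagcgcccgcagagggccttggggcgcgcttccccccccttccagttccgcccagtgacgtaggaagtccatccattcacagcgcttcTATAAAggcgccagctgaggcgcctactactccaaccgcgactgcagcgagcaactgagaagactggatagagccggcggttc
Jun: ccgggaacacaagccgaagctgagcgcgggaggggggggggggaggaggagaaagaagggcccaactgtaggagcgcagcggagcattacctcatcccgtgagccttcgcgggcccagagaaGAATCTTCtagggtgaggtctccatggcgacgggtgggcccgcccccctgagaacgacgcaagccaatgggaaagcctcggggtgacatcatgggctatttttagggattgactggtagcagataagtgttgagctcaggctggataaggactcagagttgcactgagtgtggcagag
Dusp1: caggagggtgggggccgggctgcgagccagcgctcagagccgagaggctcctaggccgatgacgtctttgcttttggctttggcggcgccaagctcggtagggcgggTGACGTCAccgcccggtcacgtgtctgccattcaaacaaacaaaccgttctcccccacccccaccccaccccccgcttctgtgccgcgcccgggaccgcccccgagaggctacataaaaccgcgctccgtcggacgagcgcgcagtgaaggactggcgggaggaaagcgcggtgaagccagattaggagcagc
Hspa1a: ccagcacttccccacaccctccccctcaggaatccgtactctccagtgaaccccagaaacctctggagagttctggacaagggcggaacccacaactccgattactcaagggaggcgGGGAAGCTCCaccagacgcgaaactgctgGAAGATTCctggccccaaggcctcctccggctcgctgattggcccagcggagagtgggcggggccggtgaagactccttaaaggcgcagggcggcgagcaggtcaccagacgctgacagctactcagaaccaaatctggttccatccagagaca
Hspa1b: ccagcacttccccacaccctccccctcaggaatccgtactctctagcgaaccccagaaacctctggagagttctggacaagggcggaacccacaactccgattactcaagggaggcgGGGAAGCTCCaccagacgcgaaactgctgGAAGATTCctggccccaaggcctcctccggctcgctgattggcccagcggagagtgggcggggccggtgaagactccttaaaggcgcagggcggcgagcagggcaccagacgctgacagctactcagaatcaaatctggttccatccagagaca

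The promoters of *Hspa1a* and *Hspa1b* were identical at 296 of 300 positions, and each held GAANNTTC starting 104 bases before the gene start and an NF-kB match starting 133 bases before it. *Jun* held the same heat shock letters at -128, *Dusp1* the cyclic AMP response element at -143, and *Fos* a TATA box at -33 and an NF-kB match at -214. Of 32544 promoters of this length, 7.89% held GAANNTTC, 8.55% TTCNNGAA, 1.8% TGACGTCA, 5.19% TGACTCA, 1.64% a CArG box, 8.49% an NF-kB match and 13.6% TATAAA. None of the marked motifs overlapped in the printed windows. The RefSeq start of *Dusp1* lies inside the longer gene that GENCODE vM21 annotates, as does that of *Atf3*, so their promoters are not at the outer end of the gene intervals given below. *Nfkbia* also held an NF-kB match, at -29, and *Atf3* held none of these motifs. A match is only a run of letters, and letters outside the window were not searched.

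The cells held a median of 426602 reads in type 1, 306356 in type 2 and 536054 in the rest, and every cell had more than 90000. Reads are PCR products counted without molecular identifiers, so the 95% intervals given below, exact Poisson for CPM and Clopper-Pearson for shares of cells, cover counting error only. Those for shares take cells as independent draws, which cells of 1 mouse need not be, so they compare no classes. The class names were checked against marker lists that leave out *Ager* and *Sftpc*. The 12 AT1 markers summed to 21415 CPM in type 1, 783 CPM in type 2 and 631 CPM in the rest, and *Hopx* took the most reads of them in type 1. The 11 AT2 markers, of which *Sftpa1* took the most reads in type 2, summed to 65867 CPM in type 2 and 468 CPM in type 1. The cells at the limits were at 5678 CPM of *Ager* (column 19, row 20, type 1) and, below the limit, at 4696 CPM. The second of these, at column 11 and row 23, was type 2 with 8718 CPM of *Sftpc*, the value just inside that limit, and the value just outside was 7774 CPM.

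The genes of the proteins that the sort selected against were near 0. *Ptprc* (CD45) was at 0.0321 CPM in type 1, 0 in type 2 and 0.449 CPM in the rest, and *Pecam1* (CD31) at 0.579, 0.276 and 1.67 CPM. The 4 endothelial markers present in the table summed to at most 1.73 CPM in any class, with *Cldn5* and *Tie1* at 0 in all classes. Of 8 macrophage and leukocyte markers, 2 were in the table, *Ptprc* and *Csf1r*, and *Csf1r* was at 398 CPM in type 1. Of the genes selected for, *Cdh1* (E-cadherin) was read in 53 of 64 type 1, 23 of 27 type 2 and 45 of 50 other cells. Transcripts of tdTomato were read in 51, 5 and 37 cells of these classes, at 112, 24.6 and 72.2 CPM. Transcripts that define a class were also read outside it: *Scgb1a1*, the club cell secretoglobin, stood at 114192 CPM in the rest and at 0.533% of that in type 1 and 0.553% in type 2. *Sftpc* stood at 0.197% of its type 2 level in type 1 and at 0.717% in the rest, and *Ager* stood at 3.68% of its type 1 level in type 2 and at 0.440% in the rest. At a share of 3.68% of their highest class, *Egr1* would read 20.6, *Ier2* 23.7 and *Atf3* 30.5 CPM elsewhere. The part of such reads in low values of the 10 genes was not tested, and cells with more than 100 CPM of a gene were counted rather than cells with any read.

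The 10 genes took 0.173% of all reads in type 1, 0.317% in type 2 and 0.641% in the rest. The summed level was 1731 CPM (1717 to 1746) in type 1, 3171 CPM (3138 to 3205) in type 2 and 6410 CPM (6382 to 6438) in the rest. Single cells ranged widely in every class: from 13.6 over a median of 1187 to 24213 CPM in type 1, from 9.79 over 2294 to 14818 CPM in type 2, and from 59.5 over 3824 to 22023 CPM in the rest. The intervals of the classes, which cover counting error only, did not overlap, yet the ranges of cells overlapped almost entirely. The cell with the most reads of the set held 7.12% of them in type 1, 24.2% in type 2 and 14.3% in the rest. Without that cell the levels were 1645, 2566 and 5748 CPM. On the log2 scale the ratio of the sums was -0.87 for type 1 to type 2, -1.89 for type 1 to the rest and -1.02 for type 2 to the rest. The last ratio ran from -1.38 to -0.48 over the alternatives, with -0.55 under TMM scaling, -0.61 in chip columns 11 to 20 and -0.48 without fibroblast-like cells and cells past 2 marker lists. No test was possible with 1 mouse.

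The number of genes of the set above 100 CPM in a cell had a median of 1.5 in type 1, 3 in type 2 and 4 in the rest. At least 5 of the 10 were above 100 CPM in 5 type 1 cells (7.81%, interval 2.59 to 17.3%), 8 type 2 cells (29.6%, 13.8 to 50.2%) and 24 cells of the rest (48%, 33.7 to 62.6%). None of the 10 reached 100 CPM in 8 type 1 cells, 2 type 2 cells and 1 cell of the rest. The map of levels cell by cell shows a band of *Dusp1* through the type 1 cells, with most other rows dark there, and bright columns in which many rows are high together in type 2 and the rest.

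**Figure D1:**
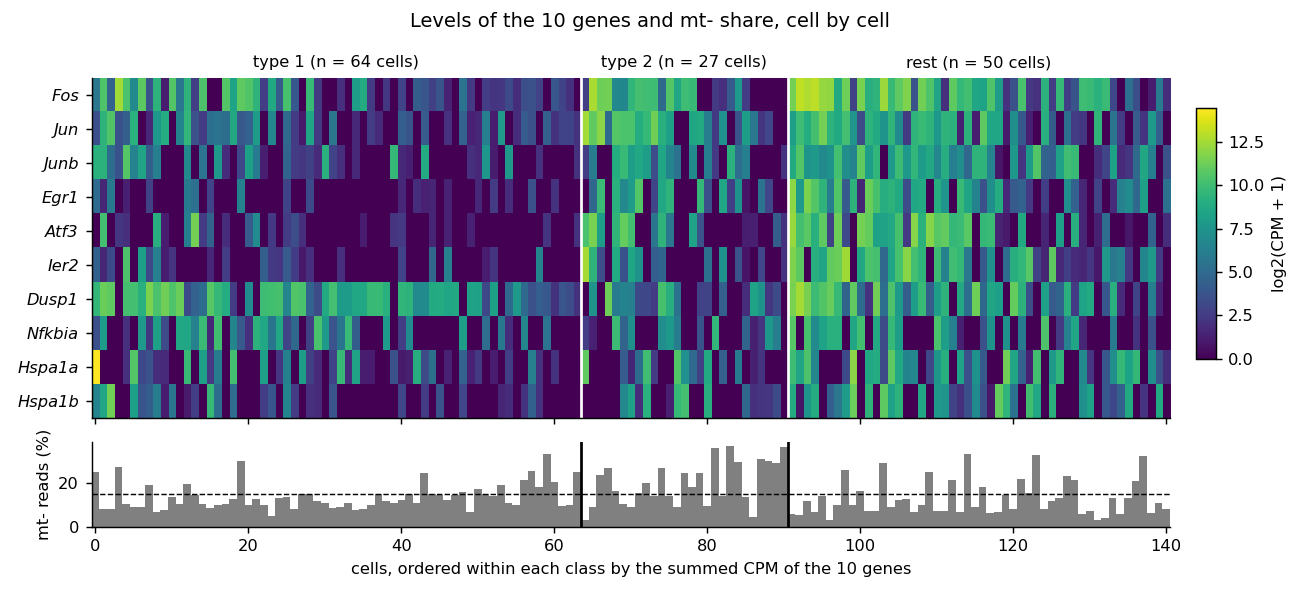
Level of each of the 10 genes (rows, colour in log2(CPM + 1)) in each of the 141 cells (columns, ordered within each class by the summed CPM), above a bar of the share of mt- reads of each cell in percent with a dashed line at 15%. *Dusp1* is bright in most of the 64 type 1 cells, and *Egr1*, *Atf3* and *Ier2* are dark in most of them.

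The ratios between classes were read against all genes. Among 9000 genes with at least 10 CPM over all cells, the median log2 ratio of type 1 to type 2 was 0.82, or 0.54 with TMM scaling. *Sftpc* alone took 126838 CPM in type 2, and its part in that median was not tested. Without TMM the median was 0.052 for type 1 to the rest and -0.83 for type 2 to the rest. Of the 10 genes, 6 were at least 2-fold lower in type 1 than in type 2, where 20.6% of all genes tested were, and 1, *Dusp1*, was at least 2-fold higher, where 46.6% were. Against the rest, 9 of the 10 were at least 2-fold lower in type 1, where 31.1% of genes were, and 0 were higher, where 31.9% were. Between type 2 and the rest, 7 were at least 2-fold lower in type 2, where 47.0% were, and 0 were higher, where 18.3% were. That count was 4 lower and 1 higher with TMM, where 41.2% and 24.8% of all genes were, and 5 lower and 1 higher without fibroblast-like cells and cells past 2 marker lists, where 42.7% and 22.4% were, and the higher gene was *Jun* in each (1.42 and 1.46). *Jun* also passed 2-fold without mt- reads in the library size (1.06), with equal weights (1.08) and below an mt share of 0.15 (1.10). It did so too when thinned (1.11) and at higher class limits (1.07). In these settings 17.4% to 19.6% of all genes were higher. At lower class limits 9 were lower, where 42.9% of all genes were. The median ratio of the 10 genes was -1.15 for type 1 to type 2, -2.02 for type 1 to the rest and -1.40 for type 2 to the rest.

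**Figure D2:**
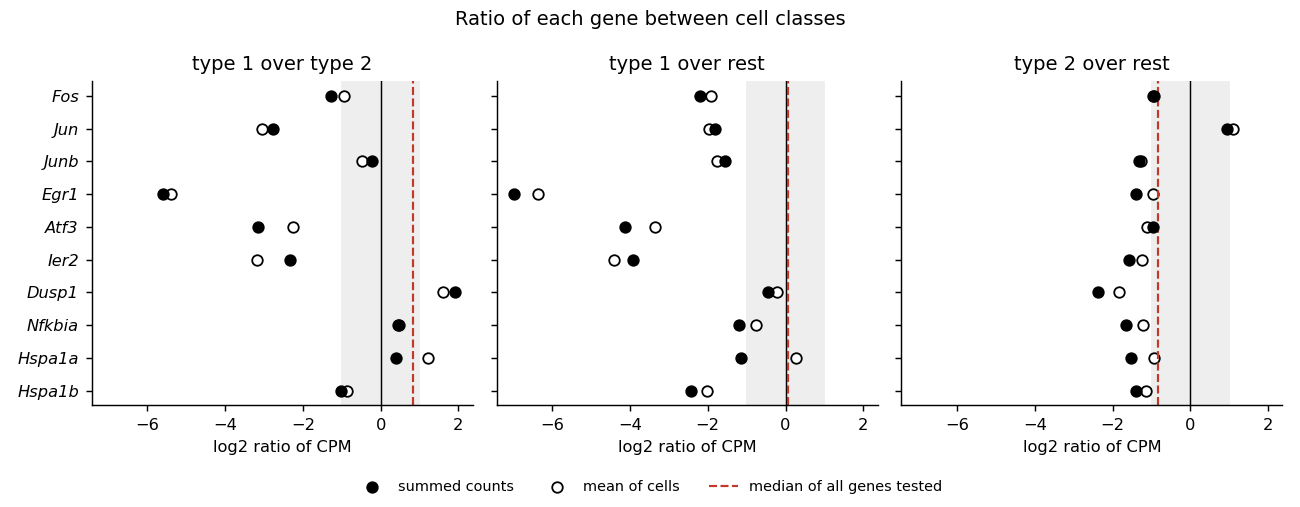
Log2 ratio of CPM of each gene for type 1 over type 2, type 1 over the rest and type 2 over the rest, from summed counts (filled) and from the mean of cells (open), with the median of all genes tested as a dashed line and the range below 2-fold shaded. *Egr1* lies farthest to the left in both type 1 panels, *Dusp1* alone lies past 2-fold on the right of type 1 over type 2 in the summed counts, and *Jun* alone lies to the right of 0 in type 2 over the rest.

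Among the AP-1 genes, *Fos* (chr12:85473890-85477273, + strand, protein coding, GENCODE vM21 on GRCm38) was at 358 CPM (351 to 364) in type 1, 860 CPM (842 to 877) in type 2 and 1649 CPM (1635 to 1664) in the rest. In single cells it ran from 0 over a median of 8.99 to 5662 CPM in type 1, from 0 over 97.7 to 6362 CPM in type 2 and from 0 over 616 to 8744 CPM in the rest. It was above 100 CPM in 19 of 64, 13 of 27 and 32 of 50 cells. Most type 1 cells were therefore low, with a minority as high as cells of the other classes. A single type 2 cell held 46.4% of all *Fos* reads of its class, and without it the type 2 level was 492 CPM. In the rest, 58.5% of the reads lay in 3 cells. The log2 ratio of type 1 to the rest was -2.21, and it was -0.81 without the fibroblast-like cells and cells past 2 marker lists described below and -0.85 in chip columns 11 to 20, both short of 2-fold. The ratio of type 1 to type 2, -1.27, also fell short, at -0.62 without the cell with the most *Fos* reads in each class, -0.95 with cells weighted equally and -0.88 thinned to 90000 reads.

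*Jun* (chr4:95049034-95052222, - strand), the partner of FOS, departed from the order seen for the sum. Its level was 112 CPM (108 to 115) in type 1, 767 CPM (751 to 784) in type 2 and 396 CPM (389 to 403) in the rest. Single cells ran from 0 over 6.52 to 1474 CPM in type 1, from 0 over 274 to 5648 CPM in type 2 and from 0 over 180 to 2824 CPM in the rest, and 11, 15 and 28 cells exceeded 100 CPM. In the summed counts it was the single member of the set that was higher in type 2 than in the rest, by 0.95 on the log2 scale, against a median of -0.83 over all genes. The same ratio of *Fos*, -0.94, became 0.45 without fibroblast-like cells and cells past 2 marker lists and 0.26 in chip columns 11 to 20. The 2 cells with the most *Jun* were both type 2, at column 20, row 17 and at column 10, row 19 (3974 CPM).

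*Junb* (chr8:84974484-84978718, - strand) was at 120 CPM (116 to 124) in type 1, 141 CPM (134 to 148) in type 2 and 352 CPM (345 to 359) in the rest. The cell medians were 2.18, 35.7 and 170 CPM, with highest cells at 1630, 868 and 1935 CPM. Type 1 and type 2 differed by -0.23 on the log2 scale. The ratio was 0.30 in cells with an mt share below 0.15, 0.14 in chip columns 11 to 20 and 0.025 at lower class limits. *Atf3* (chr1:191170296-191218039, - strand) was at 47.7 CPM (45.3 to 50.2) in type 1, 426 CPM (414 to 438) in type 2 and 830 CPM (820 to 840) in the rest. It exceeded 100 CPM in 4 of 64, 8 of 27 and 25 of 50 cells, so few alveolar cells had it at this level. In type 1, 86.5% of its reads lay in 3 cells, and the level without the cell with the most reads was 29.3 CPM. In type 2, the cell at column 18 and row 29 held 43.6% of the reads of *Atf3*, and the level without it was 256 CPM.

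*Egr1* (chr18:34859823-34864984, + strand) showed the widest gap. It was at 4.40 CPM (3.70 to 5.21) in type 1, 213 CPM (204 to 222) in type 2 and 559 CPM (551 to 568) in the rest. No type 1 cell exceeded 100 CPM (0 of 64, upper limit 5.60%), and the highest stood at 81.6 CPM, and the type 1 level was 2.65 CPM without the cell with the most reads, whereas 10 of 27 type 2 cells and 23 of 50 cells of the rest did, with highest cells at 1552 and 4129 CPM. The log2 ratio of type 1 was -5.59 to type 2 and -6.99 to the rest, below those of all but 3.80% and 8.64% of genes tested. The type 1 level was 0.787% of that in the rest. Among the shares at which *Scgb1a1*, *Sftpc* and *Ager* were read outside their classes, only that of *Ager* in type 2, 3.68%, was larger. A contribution of such reads to the *Egr1* level was not tested.

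*Ier2* (chr8:84661331-84662852, - strand) was at 42.6 CPM (40.4 to 45.0) in type 1, 214 CPM (206 to 223) in type 2 and 644 CPM (635 to 653) in the rest. Only 2 of 64 type 1 cells exceeded 100 CPM, against 6 of 27 and 26 of 50. In type 1, 73.0% of the reads came from 1 cell, at column 12 and row 8, and the level without it was 11.8 CPM. In type 2, the cell at column 20 and row 17 reached 5911 CPM, and 85.7% of the reads lay in 3 cells, with a level of 113 CPM without the cell with the most. The gene was thus low in nearly all type 1 cells and in most type 2 cells.

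*Dusp1* (chr17:26505590-26562128, - strand), the MAP kinase phosphatase, was the only member at least 2-fold higher in type 1 than in type 2 in the summed counts. It was at 652 CPM (643 to 661) in type 1, 172 CPM (164 to 180) in type 2 and 893 CPM (882 to 903) in the rest. The cell medians were 349 CPM in type 1, 7.76 CPM in type 2 and 237 CPM in the rest, with highest cells at 3140, 2438 and 5884 CPM. More than 100 CPM was found in 41 of 64 type 1 cells (64.1%, 51.1 to 75.7%), 6 of 27 type 2 cells (22.2%, 8.62 to 42.3%) and 26 of 50 cells of the rest (52%, 37.4 to 66.3%). No single cell held more than 10.9% of its type 1 reads. Its log2 ratio of type 1 to type 2 was 1.92, or 1.10 above the median gene, so 62.5% of genes tested had a smaller ratio. The ratio to the rest was -0.45 and became 0.14 in chip columns 11 to 20 and 0.43 without the fibroblast-like cells and cells past 2 marker lists.

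*Nfkbia* (chr12:55489410-55492647, - strand), the NF-kB inhibitor, was at 130 CPM (126 to 134) in type 1, 95.7 CPM (90.0 to 102) in type 2 and 300 CPM (294 to 306) in the rest. Its cell medians were 5.49, 1.47 and 3.91 CPM, and 16, 6 and 17 cells exceeded 100 CPM, with the highest cell at 1679 CPM in the rest. The cells above 100 CPM were 25% of type 1, 22.2% of type 2 and 34% of the rest. The log2 ratio of type 1 to the rest, -1.20, fell short of 2-fold with cells weighted equally (-0.76), thinned (-0.71) and without fibroblast-like cells and cells past 2 marker lists (-0.98). The positive log2 ratio of type 1 to type 2, 0.44, lay below the median of all genes. In cells with an mt share below 0.15 it was 1.41, where the median was 1.02, and at lower class limits 1.03, where the median was 0.69.

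**Figure D3:**
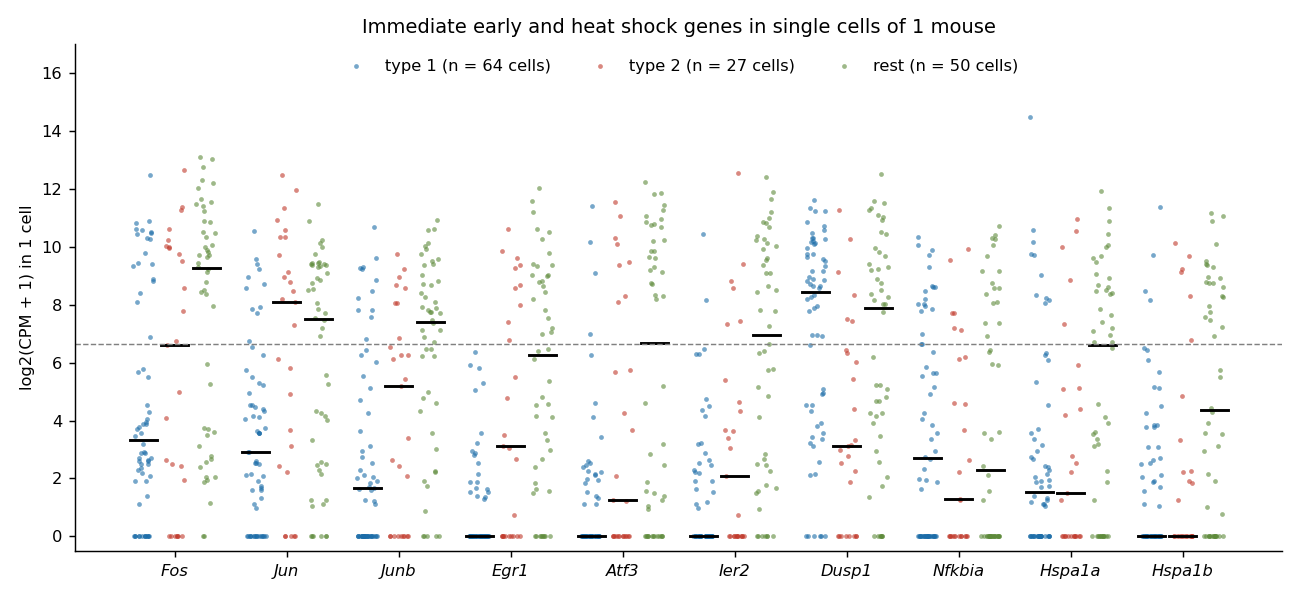
Level of each gene in single cells, as log2(CPM + 1), for 64 type 1, 27 type 2 and 50 cells of the rest of 1 mouse. Points are cells, short lines are class medians, and the dashed line marks 100 CPM. Cells at 0 are found for every gene in every class, and the type 1 median stands above 100 CPM for *Dusp1* only.

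*Hspa1a* (chr17:34969190-34972156, - strand) was at 202 CPM (197 to 207) in type 1, 154 CPM (147 to 161) in type 2 and 445 CPM (438 to 452) in the rest. Its median cell was at 1.95, 1.85 and 96.9 CPM, and 10 of 64, 5 of 27 and 25 of 50 cells exceeded 100 CPM. The type 1 cell at column 15 and row 6 reached 22639 CPM, 2100 of its 92762 reads, and held 33.4% of the type 1 reads of the gene. Of the reads of the cell at column 15 and row 6, 24.9% were mt-, and the lowest depth of any cell was 91402 reads. The next highest cell of any class stood at 3887 CPM. With cells weighted equally the log2 ratio of type 1 to the rest was 0.28 in place of -1.14, and without that cell the ratio of the summed counts was -1.72, so the direction for this gene changed with the weight given to cells. The ratio of type 1 to type 2, 0.39, also changed sign, to -0.19 without that cell, -0.33 in cells with an mt share below 0.15 and -1.21 in chip columns 1 to 10, whereas it was past 2-fold higher with cells weighted equally (1.21), thinned (1.14) and in chip columns 11 to 20 (1.30).

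*Hspa1b* (chr17:34956436-34959238, - strand) was at 63.3 CPM (60.6 to 66.2) in type 1, 129 CPM (122 to 136) in type 2 and 343 CPM (336 to 349) in the rest. It exceeded 100 CPM in 4 of 64, 6 of 27 and 22 of 50 cells, and its median cell was at 0 in both alveolar classes and at 19.8 CPM in the rest. The type 1 cell at column 12 and row 6, at 2664 CPM, held 48.4% of the type 1 reads, and the level without it was 33 CPM. The ratio of type 1 to type 2, -1.03, fell short of 2-fold in cells with an mt share below 0.15 (-0.69), with cells weighted equally (-0.86) and thinned to 90000 reads (-0.94), and was 0.21 in chip columns 11 to 20. Across cells the rank correlation (Spearman's rho) of *Hspa1a* with *Hspa1b* was 0.25 in type 1, 0.37 in type 2 and 0.33 in the rest. The transcripts share sequence: of all windows of 120 bases, the length of the read that was sequenced, 43.2% of those of *Hspa1a* occurred unchanged in *Hspa1b*, and 62.4% of those within its coding sequence did. None of the 381 windows in the last 500 bases of either transcript did. How the counting divided reads that fit both genes was not stated, so the share of each gene is uncertain and the sum of the pair is less so.

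Within the rest, the level of the set differed between kinds of cell. A cell was given a name where at least 50% of the genes of exactly 1 of 4 marker lists exceeded 100 CPM, and 32 of the 50 cells lay at such a limit or 1 gene below it. The summed level was 3586 CPM (3551 to 3622) in 14 club-like cells, 3220 CPM (3175 to 3265) in 11 ciliated-like cells, 10623 CPM (10488 to 10759) in 3 basal-like cells and 17757 CPM (17611 to 17904) in 3 fibroblast-like cells. The 3 basal-like cells stood at 3012, 5122 and 22023 CPM, and the highest, at column 4 and row 3, set most of their level. The 8 cells past 2 lists stood at 8088 CPM and the 11 cells past no list at 5170 CPM. Fibroblast-like cells are not what a gate on E-cadherin would keep, and the fibroblast list summed to 933 CPM in the rest, 634 of them from *Dcn*, against 1.58 CPM in type 1 and 2.48 CPM in type 2, where 5 of its 7 genes were at 0.

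Single genes were read across these groups. *Fos* was at 7056 CPM in the fibroblast-like, 1037 CPM in the basal-like, 567 CPM in the ciliated-like and 529 CPM in the club-like cells, and *Dusp1* at 3700, 1335, 532 and 217 CPM. *Atf3* was at 1678, 2416, 397 and 424 CPM in the same order. The basal-like levels of *Fos*, *Dusp1* and *Atf3* came mostly from the cell at column 4 and row 3. All 10 genes exceeded 100 CPM in that cell, and the sum was 22023 CPM. The median basal-like cell had 4.26 CPM of *Fos*. Of the 11789 fibroblast-like reads of *Dusp1*, 8099 lay in the cell at column 5 and row 5. *Hspa1a* exceeded 100 CPM in 11 of 14 club-like cells, with a median of 284 CPM, and in 5 of 11 ciliated-like cells, with a median of 90.4 CPM. Among the 11 cells past no list, the median mt- share was 22.0% and the median depth 265822 reads. Without the fibroblast-like cells and those past 2 lists, type 1 remained below the rest in the sum (log2 ratio -1.35), and 6 of 10 genes were at least 2-fold lower in place of 9, where 28.9% of all genes were lower and 35.6% higher.

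**Figure D4:**
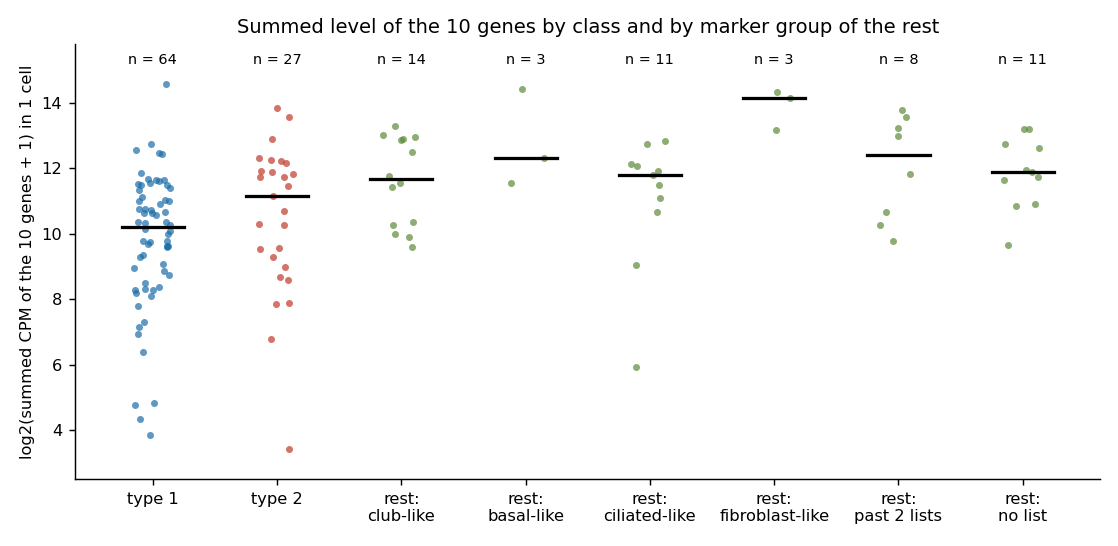
Summed CPM of the 10 genes in single cells, as log2(CPM + 1), for type 1, type 2 and the marker groups of the rest, with n above each group. Points are cells and lines are medians. The 3 fibroblast-like cells lie above the medians of all other groups, and the lowest cells are type 1 and type 2 cells.

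Pairs of immediate early genes were compared by rank across the cells of a class, with no such value for pairs of other genes beside them. In the rest, all 28 pairs of the 8 immediate early genes had a positive rho, with a median of 0.29, and 8 pairs reached 0.4, the strongest being *Fos* with *Atf3* (0.55) and *Jun* with *Atf3* (0.54). In type 2, 26 of 28 were positive with a median of 0.23, and *Jun* reached 0.69 with *Atf3* and 0.62 with *Ier2*. In type 1, 22 of 28 were positive with a median of 0.17, and 1 pair reached 0.4, *Ier2* with *Dusp1* (0.48), although only 2 type 1 cells had *Ier2* above 100 CPM. Pairs of an immediate early gene with an Hsp70 gene never reached 0.4, with medians of -0.036 in the rest, -0.11 in type 2 and 0.17 in type 1. These values describe 64, 27 and 50 cells that share 1 mouse, 1 chip and a depth that differs between cells.

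Over all 141 cells and 1211 genes read in at least 50% of them, the genes most like *Fos* in rank were *Fosb* (rho 0.51), *Tsc22d1* (0.36), *Zfp36* (0.36), *Mt1* (0.33) and *Hes1* (0.31). *Fosb* encodes another AP-1 subunit and *Zfp36* an RNA-binding protein that destabilises messages. The rho of *Fosb* with *Fos* was 0.50 in type 1, 0.31 in type 2 and 0.54 in the rest. For *Hspa1a* the closest were *Gm12967* (0.35), *Gm11539* (0.31), *Rpl37* (0.30), *Rpl27* (0.30) and *Rpl37rt* (0.30), weak values that include 3 genes named for ribosomal proteins. These ranks were pooled over classes in which the levels of the genes differ. Within classes, *Zfp36* had a rho with *Fos* of 0.23 in type 1, 0.13 in type 2 and 0.45 in the rest. That of *Gm11539* with *Hspa1a* was 0.02, 0.62 and 0.29.

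The share of mt- reads, those on the 37 genes of the mitochondrial genome, had a median of 11.9% in type 1 (4.99 to 33%), 18.2% in type 2 (3.08 to 36.9%) and 9.96% in the rest (3.03 to 33.3%). At or above 15%, the limit above which the study set cells aside, were 19 of 64, 16 of 27 and 14 of 50 cells. These cells were also shallower, with median depths of 316610 against 468718 reads in type 1, 244845 against 413806 in type 2 and 277722 against 693389 in the rest. Because a high mt- share lowers every other CPM by arithmetic, levels in the comparison by mt- share are per 1000000 non-mitochondrial reads (non-mitochondrial CPM).

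In type 1 the difference of the summed set with mt- share depended on how cells were weighted. The sum was at 1894 non-mitochondrial CPM in the 19 cells at or above 15% and 2014 in the 45 below, a log2 ratio of -0.089, while the median cell had 426 at or above 15% and 1483 below. The cell at column 15 and row 6 was in the first group, and without it the ratio was -0.37. With cells weighted equally it was 0.63, so its sign was not stable. Across type 1 cells the sum had a rho of -0.26 with mt- share. In type 2 the log2 ratio was -0.28 with a rho of -0.45, but the ratio was 0.11 without the cell with the most reads of the set on each side. In the rest the ratio was -0.47 with a rho of 0.030. Single genes of the rest differed between the 30 cells of chip columns 1 to 10 and the 20 cells of columns 11 to 20. Their rho was -0.37 and 0.55 for *Fos*, -0.33 and 0.52 for *Atf3*, and -0.24 and 0.30 for *Jun*. The sign also changed for *Egr1*, *Ier2*, *Nfkbia* and *Hspa1b*, and it held for *Junb*, *Dusp1* and *Hspa1a*.

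Gene by gene, 4 of 10 were at least 2-fold lower at high mt- share in type 1, *Atf3*, *Ier2*, *Nfkbia* and *Hspa1b*, where 41.7% of genes tested were, and 2 were higher, *Egr1* and *Hspa1a*, where 20.7% were. In type 2, 2 were lower, *Atf3* and *Ier2*, where 33.6% were, and 3 were higher, *Junb*, *Egr1* and *Nfkbia*, where 25.9% were. In the rest, 3 were lower, *Egr1*, *Dusp1* and *Hspa1a*, where 52.7% were, and 1, *Junb*, was higher, where 22.4% were. Of these 15 differences, 7 fell short of 2-fold when the cell with the most reads of the gene was left out on 1 side. Among them, *Hspa1a* in type 1 went from 1.75 to 0.22 without the cell at column 15 and row 6, which held 2100 of the 3201 reads at high mt- share, and *Nfkbia* from -1.20 to -0.98 without the cell at column 17 and row 1. In type 2, *Nfkbia* went from 1.63 to 0.62 without the cell at column 19 and row 17, *Egr1* from 1.39 to 0.72 without that at column 6 and row 39, *Junb* from 1.04 to 0.82 without that at column 19 and row 17, and *Atf3* from -1.52 to -0.62 without that at column 18 and row 29. In the rest, *Junb* went from 1.34 to 0.85 without the cell at column 11 and row 32. The median log2 ratio of the 10 genes was -0.57 in type 1, 0.00 in type 2 and -0.52 in the rest, beside -0.55, -0.29 and -1.41 over all genes. These counts lay near or below the background shares for lower genes, and members differed in both directions.

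Among the 10 genes in type 1 cells, *Dusp1* had the strongest rank correlation with mt- share. Below 15% the median cell had 542 non-mitochondrial CPM and 36 of 45 cells exceeded 100, and at or above 15% the median cell had 20.8 and 6 of 19 exceeded 100. The rho across the 64 type 1 cells was -0.49, and it was -0.51 in the 34 cells of chip columns 1 to 10, -0.45 in the 30 cells of columns 11 to 20, and -0.50 with every cell thinned to 90000 reads. Of 8887 genes compared in type 1, the median rho with mt- share was -0.066, and *Dusp1* had the second lowest value, between *Laptm4b* (-0.50) and *Rgcc* (-0.49). *Dusp1* was read in 58 of the 64 cells, *Laptm4b* in 43 and *Rgcc* in 60. The genes compared were not matched for the number of cells with reads. *Dusp1* had a rho of -0.34 in the rest (4.76% of genes as low or lower) and -0.30 in type 2 (17.7%). Depth moved with mt- share in the same cells, with a rho of -0.27 in type 1, and *Dusp1* had a rho of 0.25 with depth.

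In the summed counts *Dusp1* differed as the median gene did. Type 1 cells at or above 15% had 553 and those below 808 non-mitochondrial CPM of *Dusp1*, a log2 ratio of -0.55, which is also the median over all genes. *Egr1* in type 1 had the opposite sign, with a rho of 0.32, at or above that of 99.7% of genes. The rho was 0.39 in chip columns 1 to 10, 0.23 in columns 11 to 20 and 0.40 thinned. The levels of *Egr1* were low, 14.2 non-mitochondrial CPM at or above 15% and 2.22 below. A contribution of reads from outside the class to them was not tested. Of its 91 reads at or above 15%, 57 lay in the cell at column 11 and row 38. Without that cell the first level was 6.02 non-mitochondrial CPM and the log2 ratio 1.44 in place of 2.68. In type 2, *Jun* had a rho of -0.54 with mt- share, with 339 non-mitochondrial CPM in the median cell below 15% and 28.3 at or above, but the value was -0.81 in the 18 cells of columns 11 to 20 and -0.11 in the 9 cells of columns 1 to 10.

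**Figure D5:**
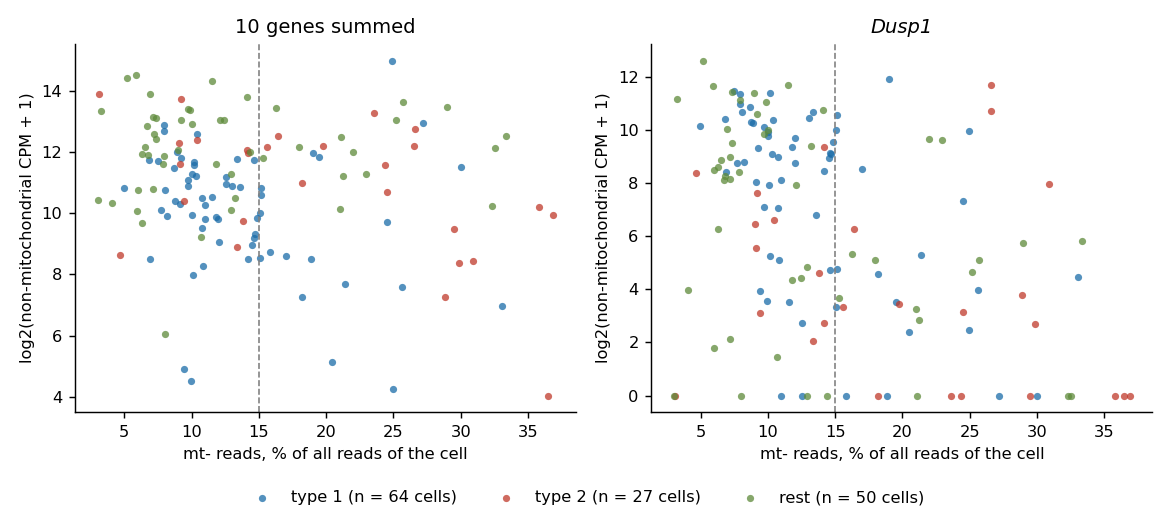
Summed level of the 10 genes (left) and level of *Dusp1* (right), as log2(non-mitochondrial CPM + 1), against the share of mt- reads in percent of all reads of the cell, for the 3 classes, with a dashed line at 15%. Each point is a cell. *Dusp1* in type 1 cells is mostly high on the left of the line, with 36 of 45 cells above 100, and mostly low on the right, with 6 of 19.

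Other genes of the same kinds were taken from lists, whose counts are to be read against all genes tested, of which 20.6% were lower and 46.6% higher in type 1 than in type 2 (median 0.82) and 31.1% lower and 31.9% higher than in the rest (median 0.052). Of 30 other immediate early genes with at least 10 CPM, 11 were at least 2-fold lower and 10 higher in type 1 than in type 2, with a median log2 ratio of 0.27, and 13 were lower and 6 higher than in the rest, with a median of -0.78. The lower genes thus took a larger share, and the higher genes a smaller one, than among all genes. *Jund*, another AP-1 gene, was at 358 CPM in type 1, 1130 CPM in type 2 and 490 CPM in the rest. *Ier3* was at 676, 32 and 107 CPM and *Mcl1*, an anti-apoptotic BCL2 relative, at 666, 193 and 145 CPM, so both were highest in type 1. *Klf6* was nearly level in the summed counts, at 539, 446 and 491 CPM, but its cell medians were 328, 43.8 and 268 CPM. *Ctgf* had the largest ratio of type 1 to type 2 (99.8 against 0.184 CPM, 2 reads in type 2) and *Klf4* the smallest (0.193 against 55.7 CPM).

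Of 22 other heat shock and chaperone genes, 2 were at least 2-fold lower and 9 higher in type 1 than in type 2 (median 0.70), and 5 were lower and 1 higher than in the rest (median -0.49), so neither count against type 2 exceeded the share among all genes. *Hsp90ab1*, a constitutive Hsp90 gene, was at 913, 465 and 1216 CPM in type 1, type 2 and the rest, *Ubb* at 1077, 348 and 1019 CPM, and *Hspa5*, the chaperone of the endoplasmic reticulum, at 805, 1342 and 827 CPM. *Stip1* had the smallest ratio of type 1 to type 2 (4.31 against 82.6 CPM) and *Hsf2* the largest (15.2 against 0.0919 CPM, 1 read in type 2). Of 11 NF-kB pathway genes, 4 were lower and 5 higher in type 1 than in type 2 (median 0.22), the higher ones near the share among all genes, and 6 were lower and 2 higher than in the rest (median -1.03). *Icam1*, an adhesion molecule, was at 2632, 337 and 145 CPM and *Rela*, an NF-kB subunit, at 41.6, 187 and 85.1 CPM. *Nfkbiz*, with the smallest ratio, was at 0.354, 18 and 124 CPM, *Chuk* at 74.1, 15.3 and 50.6 CPM, and *Tnfaip3*, with the largest, at 17.2, 0 and 35.9 CPM.

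Of 7 genes of the integrated stress response, 2 were lower and 2 higher in type 1 than in type 2 (median 0.09), and 1 was lower and 2 higher than in the rest (median -0.11). *Atf4*, its central transcription factor, was at 139, 580 and 149 CPM, *Herpud1* at 313, 295 and 319 CPM and *Xbp1* at 100, 91.4 and 157 CPM. *Asns* was at 29.3, 0.0919 and 42.5 CPM and *Ddit4* at 0.0964, 35.1 and 17.6 CPM. Among 6 reference genes, 3 were at least 2-fold lower and 0 higher in type 1 than in type 2 (median -1), and the same numbers held against the rest (median -0.86). *Actb* was at 4219, 2934 and 2193 CPM, *Rplp0* at 202, 879 and 986 CPM, *Ppia* at 95.9, 214 and 348 CPM, *Hprt* at 116, 102 and 93.8 CPM and *Eef1a1* at 44.9, 198 and 116 CPM. *Rplp0* and *Eef1a1*, which act in translation, were thus also lower in type 1.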

How the data were processed

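Single tdTomato+ cells of 1 mouse were sequenced from a Fluidigm C1 HT chip (120-base cDNA read). Raw counts of reads per gene were deposited by the authors. They come from featureCounts, after alignment by HISAT2 (GRCm38) of reads cleaned with Trim Galore, and versions and strand setting are not given in the sources used here. No cell was removed here. The study kept cells with more than 90000 reads, more than 500 genes and an mt share below 0.15, and inspected captures under a microscope. Doublets were not called computationally.

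Counts were summed per class and scaled to CPM. Because the kit tags the 3′ end of the cDNA, reads need not grow with transcript length, so the CPM of different genes shows which took more reads and not which had more transcripts. Because the cells are 1 sample, no test was run. Ratios of at least 2-fold were counted over genes with at least 10 CPM, and a class with 0 reads was set to 3 reads, so such a ratio is a bound. The ratio step was tested on simulated data. The named genes are the 10 of the set, the 4 most abundant genes of each further list with its largest and smallest ratio of type 1 to type 2, and the 5 genes most like *Fos* and *Hspa1a*. The values of 1 gene that this rule names are not reported here. The genes, classes and lists were chosen with earlier results of these data known. Of the symbols, 94.0% matched GENCODE vM21. Alternatives changed the library size, scaling (TMM of edgeR 4.0.16 in R 4.3.3), weight of cells, mt filter, depth, class limits, single cells (1 at a time by mt share, chosen after seeing the data), chip columns, fold limit, low filter and genes summed. Python 3.11.15 with numpy 2.4.6, pandas 2.3.3, scipy 1.17.1 and matplotlib 3.10.9 did the rest.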

Additional observations from a re-analysis of the deposited data

How the results depend on the processing

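The summed log2 ratio of type 1 to type 2, -0.87, stayed negative under all 12 alternatives, and that of type 1 to the rest, -1.89, under all 13. In that order they were -0.93 and -1.85 without mt- reads in the library size, -1.16 and -1.75 with TMM, -0.71 and -1.53 with cells weighted equally, -1.01 and -1.91 in cells with an mt share below 0.15, -0.71 and -1.55 thinned to 90000 reads, -0.70 and -2.02 at lower and -0.92 and -1.84 at higher class limits, -0.64 and -1.81 without the cell with the most reads of the set in each class, -0.99 and -2.38 on the chip's columns 1 to 10, -0.69 and -1.30 on its columns 11 to 20, -0.98 and -1.94 without the Hsp70 genes, and -0.93 and -1.95 without the cell at column 15, row 6. Leaving out fibroblast-like cells and cells past 2 lists gave -1.35 for the rest. These last 2 alternatives were chosen after seeing the data. Genes at least 2-fold apart numbered 6 to 8 of 10 against type 2 and 6 to 9 against the rest, and 5 and 6 were at least 3-fold apart, where 14.4% of all genes were lower and 39% higher than in type 2 and 23.7% and 22.4% than in the rest, so the 2-sided counts against type 2 lie near the background. Against type 2 the split of 6 lower and 1 higher became 4 and 2 with equal weights (all genes 21.1% and 49.8%) and when thinned (20% and 46.9%), and 5 and 2 below an mt share of 0.15 (21.8% and 47.9%) and in columns 11 to 20 (25.8% and 44.8%). The ratio by mt share in type 1, -0.089, turned to 0.14 with TMM, 0.63 with equal weights and 0.55 when thinned. It was -0.25 with all reads, -0.15 at higher class limits, -0.18 without the top cells, -0.61 in columns 1 to 10, -0.35 without the Hsp70 genes and -0.37 without the cell at column 15, row 6. Its rank correlation, -0.26, was -0.32 with all reads and also without that cell, -0.49 in columns 1 to 10, -0.095 in columns 11 to 20 and -0.21 as Pearson's r. The ratio of *Hspa1a* in type 1 to the rest reversed to 0.28 with equal weights, 0.27 when thinned and 0.29 in columns 11 to 20, and that of *Hspa1b* to type 2 to 0.21 in columns 11 to 20. Sign changes of ratios under 2-fold (*Fos*, *Junb*, *Dusp1* and *Hspa1a*) stand beside their values above. The causes were not tested. Classes of 1 mouse carry no biological error, depth differs between cells, and no cell was spared dissociation, so a response to it cannot be told apart from the state of the cells in the lung. No paired analysis was possible because the result comes from no test.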
